A study of Mus musculus with 4 samples.

Results

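Axon guidance ligands and receptors were followed in the dentate gyrus, the granule cell subfield of the hippocampus, in 4 samples of total RNA from mice. They are the probe sets of the deposited table whose annotation gives 1 gene symbol that begins like an Eph receptor, an ephrin, a semaphorin, a plexin, a neuropilin, a Robo, a slit, a netrin or an Unc5 receptor, with Sema5a left out. The rule took 56 of the 12488 probe sets on the array, which name 43 of 8251 genes. One of them, Unc50, matches by its letters alone: it encodes a protein of the Golgi membrane and not a netrin receptor, and it is counted apart, which leaves 42 guidance genes. No probe set with 1 symbol named a slit gene.

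The samples came from young male mice of the strain C57BL/6J. All were controls that were handled by the experimenter and given nothing else. RNA was taken at 1, 2, 4 or 6 h, counted from the last shock that a separate experimental group received, and each hour has 1 array. The shocked mice were not analysed here. How many mice stand behind a sample is not given in the sources used here, so the spread over the 4 samples mixes the hour, the animals and the array.

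Ephrins are ligands that stay attached to the cell surface and bind Eph receptor tyrosine kinases on the neighbouring cell, and signals can run into both cells. Semaphorins are secreted or membrane-bound ligands of plexins, and the secreted class mostly needs a neuropilin as co-receptor. Netrins attract axons through Dcc and repel them through Unc5 receptors, while slits repel axons through Robo receptors. In the adult hippocampus many of these proteins stay in use at dendritic spines, at synapses and along the mossy fibres of granule cells.

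Values are array intensities, written in the order 1, 2, 4 and 6 h. The level of one probe set cannot be set against that of another, so only the hours of the same probe set are compared. In tissue RNA, fewer cells of a type and less RNA per cell cannot be told apart. Intensities at or under a floor of 38.3, the 20th percentile on these arrays, were not told apart from each other. Testing was limited to genes with a mean of at least 7.41 in log2 units, the 40th percentile over genes, and 27 of the 42 guidance genes were past this filter (14 of 24 ligands and 13 of 18 receptors). A gene with several probe sets is represented by the brightest one. A list of such genes past a filter on the mean is not the whole family, and no statement on all guidance genes is made from it.

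No guidance gene had a course over the hours that passed the test. A line of log2 intensity on the hour was fitted with limma to all 4951 genes past the filter, and 0 of 27 guidance genes had a Benjamini-Hochberg adjusted p under 0.05. The share over all genes was 0%. The adjusted p was 0.99993 for each of the 27. At an unadjusted p under 0.05 there was 1 guidance gene (3.7%), the semaphorin Sema7a, where 2.02% of all genes had such a p. The slope was positive in 16 of the 27 and in 49.9% of all genes, with a median of 0.02 log2 per h in the guidance genes and 0.00 over all genes.

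**Figure D1:**
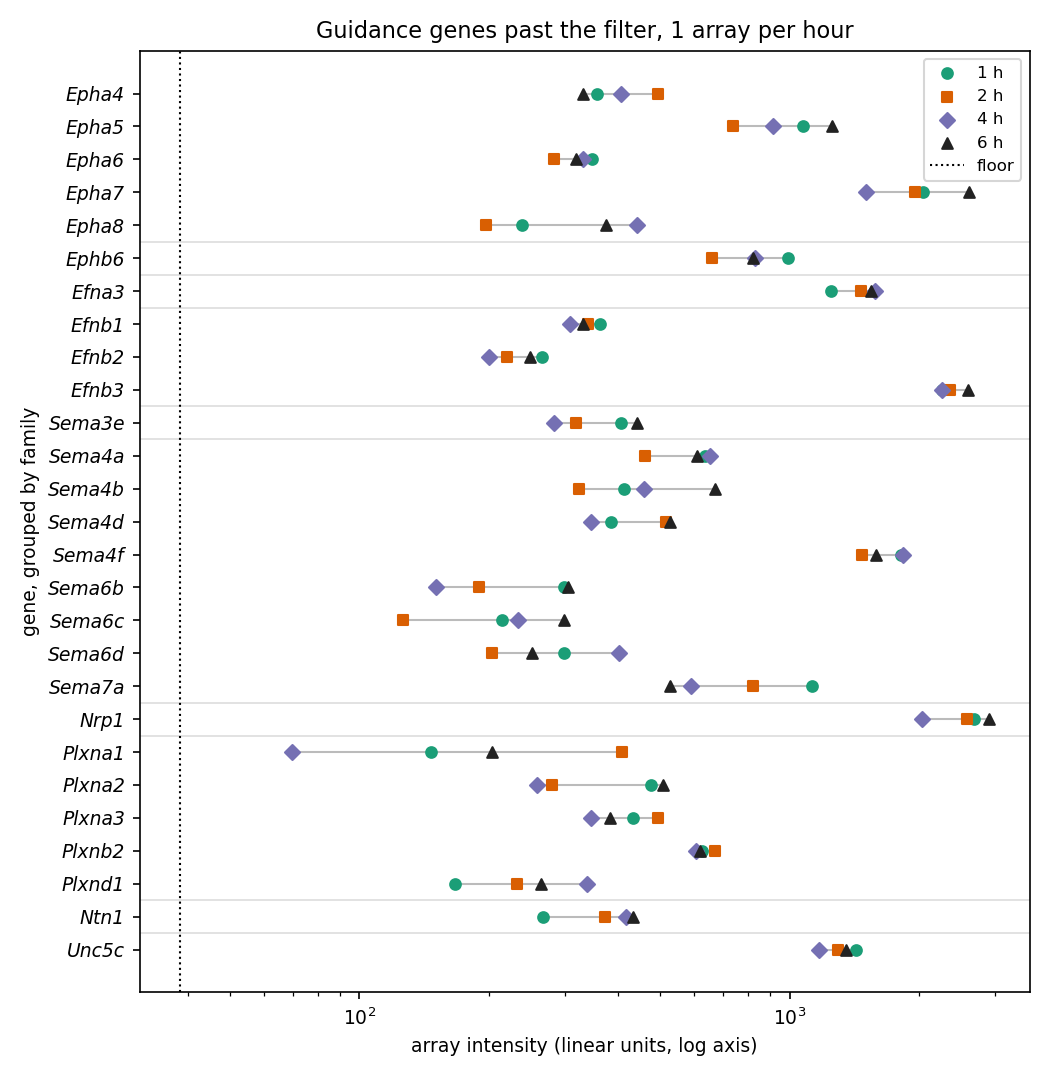
Array intensity (log axis, linear units) of the 27 guidance genes past the filter, grouped by family, with 1 symbol per hour and a grey line from the lowest to the highest hour. The dotted line is the floor of 38.3. Plxna1 has the widest line, from 69.7 at 4 h to 408 at 2 h, and the 4 values of Plxnb2 and Efnb3 nearly coincide.

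EphA receptors, which mostly bind ephrin-A ligands, had probe sets for 7 genes, of which 5 were past the filter. Epha7 read 2043, 1953.5, 1505 and 2612, with a mean of 2028.5 ± 455 (SD, n = 4). It was highest at 6 h and lowest at 4 h, a 1.74-fold span. Epha5 was highest at 6 h too, with 1076, 738, 915 and 1255, but its lowest value was at 2 h. Epha4, a receptor that binds ephrins of both classes and is known from dendritic spines, read 356, 496, 406 and 332 and stood highest at 2 h. Epha6 differed little, at 348, 284, 331 and 319 (SD 0.12 in log2 units). Epha8 had the widest span among EphA receptors, 2.24-fold, with 238, 197, 442 and 375. Its early hours lay below its late ones, and its slope was 0.19 ± 0.10 log2 per h (SE, n = 4; limma adjusted p = 0.99993).

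The other probe sets of 3 EphA genes did not reach the filter. They read 36.4, 124, 108 and 70.7 for Epha4, 15.9, 38.3, 131 and 22.6 for Epha5 and 35.4, 82.2, 119.7 and 99.1 for Epha7. That of Epha4 was highest at 2 h, like the brighter one, but lowest at 1 h. That of Epha7 was highest at 4 h, the hour at which the brighter probe set was lowest. Epha2 (21.3, 18.8, 59.5 and 27.4) and Epha3 (36.4, 124, 41.4 and 30.5) were under the filter, each above the floor in 1 or 2 samples.

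Among EphB receptors, Ephb6, a family member known to lack kinase activity, read 990.4, 662, 833 and 823. It was highest at 1 h and lowest at 2 h. The other Ephb6 probe set, also past the filter, put the hours in another order: 449, 530, 617 and 467. Ephb3, a kinase-active receptor of ephrin-B ligands, did not reach the filter and read 193, 132, 249 and 48.8.

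Ephrin-B ligands, transmembrane proteins that can signal back into the cell carrying them, differed little between the hours. All 3 genes were past the filter, with spans from 1.15-fold to 1.32-fold. Efnb3, an ephrin of adult neurons, read 2267, 2359.5, 2262 and 2606, a mean of 2374 ± 161 (SD, n = 4). Efnb1 read 363.5, 340, 308 and 331 and Efnb2 read 265, 220.5, 201 and 249. Each of the 3 had its lowest value at 4 h, but the 4 h value of Efnb3 lay a factor of 1.002 under that at 1 h, which is no order. The other Efnb3 probe set, also past the filter, read 274, 499, 537 and 528, so that 1 h stood alone below the later hours there and not in the brighter probe set.

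Ephrin-A ligands, held to the membrane by a lipid anchor, had probe sets for 5 genes and 1 past the filter. Efna3 read 1251, 1462, 1579 and 1546, a mean of 1459 ± 147 (SD, n = 4), with 1 h lowest and a 1.26-fold span. Of those under the filter, Efna2 was above the floor in every sample, at 138, 132, 243.5 and 111. Efna1 reached 129.5 at 2 h and was between 25.4 and 42.5 at the other hours. The highest values were 57.3 for Efna4 at 1 h and 75.2 for Efna5 at 6 h, and the remaining 3 samples of both lay under the floor.

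Neuropilin 1 (Nrp1), the ligand-binding co-receptor of most secreted semaphorins, read 2682.5, 2580.1, 2032 and 2913, a mean of 2552 ± 374 (SD, n = 4). The other Nrp1 probe set, also past the filter, read 575, 626, 443.5 and 626. Both had their lowest value at 4 h and shared a highest value at 6 h, which the dimmer one also reached at 2 h. A-type plexins are the signalling partners of neuropilins. Plxna1 read 147, 408, 69.7 and 204, Plxna2 read 478, 281, 259 and 509 and Plxna3 read 433, 495, 346 and 383.

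The 4 genes Nrp1, Plxna1, Plxna2 and Plxna3 were thus all lowest at 4 h, by factors of 1.27, 2.11, 1.09 and 1.11 from the next hour. With each array scaled to its median this held for 4 of 4, which was fixed in advance. The 4 h array has the highest median (212.75, against 184.75 to 187.3 on the others), so that scaling lowers its values most. With quantile normalisation it held for 3 of 3, and Plxna1 did not reach the filter. Of all genes past the filter, 29.2% were lowest at 4 h, 46.9% after median scaling and 30.7% after quantile normalisation. All 4 values at 4 h come from the same array, and the genes were grouped after their values were seen. Their highest hours differed: 2 h for Plxna1 and Plxna3 and 6 h for Nrp1 and Plxna2. In the trend fit the slopes were 0.01 ± 0.06 log2 per h for Nrp1, −0.09 ± 0.18 for Plxna1, 0.04 ± 0.10 for Plxna2 and −0.07 ± 0.08 for Plxna3 (SE, n = 4; limma adjusted p = 0.99993 for each).

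Plexins of other classes differed from each other. On its brighter probe set, Plxnb2 was highest at 2 h and lowest at 4 h, like Plxna1 and Plxna3. Plxnb2, a B-type plexin that binds class 4 semaphorins, read 627, 672, 608 and 619.6, with the smallest span of the 27 genes (1.11-fold) and a 4 h value within a factor of 1.02 of that at 6 h. Its other probe set, past the filter too, was lowest at 2 h, at 282, 174, 273 and 266. Plxnd1, known as a receptor for Sema3e in blood vessels and neurons, was highest at 4 h and lowest at 1 h, with 166.5, 233, 338 and 264 (2.03-fold). The difference between Plxnd1 and the A-type plexins at 4 h was not tested.

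The 250 bases in front of the annotated start of 4 of these receptor genes are shown because Nrp1, Plxna2 and Plxna3 were lowest at 4 h and Plxnd1 was highest there. Plxna1 was lowest at 4 h too but had no entry among the promoter sequences. Plxnb2, lowest at 4 h by a small margin, is not shown. The sequences are from RefSeq (GRCm38.p6), each 5′ to 3′ on the strand of the gene. Capitals mark a GC box, the letters GGGCGG on either strand, the kind of site that the general activator Sp1 binds.
Nrp1, chr8:128358823-128359072, plus strand: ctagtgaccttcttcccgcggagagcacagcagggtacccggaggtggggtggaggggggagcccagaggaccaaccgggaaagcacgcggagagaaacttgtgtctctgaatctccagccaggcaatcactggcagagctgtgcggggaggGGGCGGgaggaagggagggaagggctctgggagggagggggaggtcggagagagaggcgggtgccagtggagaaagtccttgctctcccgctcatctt
Plxna2, chr1:194619579-194619828, plus strand: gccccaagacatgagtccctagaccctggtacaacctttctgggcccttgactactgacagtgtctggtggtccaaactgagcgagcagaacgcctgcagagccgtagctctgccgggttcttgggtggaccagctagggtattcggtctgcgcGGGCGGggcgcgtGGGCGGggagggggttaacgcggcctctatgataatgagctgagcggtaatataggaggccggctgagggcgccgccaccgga
Plxna3, chrX:74328816-74329065, plus strand: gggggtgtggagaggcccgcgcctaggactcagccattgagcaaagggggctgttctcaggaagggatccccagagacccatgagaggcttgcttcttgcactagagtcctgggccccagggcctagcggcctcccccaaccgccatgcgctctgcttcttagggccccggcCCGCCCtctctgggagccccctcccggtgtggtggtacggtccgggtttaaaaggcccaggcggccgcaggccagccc
Plxnd1, chr6:115995006-115995255, minus strand: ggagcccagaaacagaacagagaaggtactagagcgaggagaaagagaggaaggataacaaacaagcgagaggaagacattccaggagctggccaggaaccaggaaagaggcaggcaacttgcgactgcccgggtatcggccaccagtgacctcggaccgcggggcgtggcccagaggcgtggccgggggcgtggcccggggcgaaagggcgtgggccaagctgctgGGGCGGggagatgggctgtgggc
Plxna2 holds 2 GC boxes and the others hold 1 each. The GC content of these windows runs from 62.8% in Plxna2 to 68% in Plxna3.

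An entry was found for 24 of the 27 guidance genes, with 36 windows, and 77.8% of these held a GC box. The share was 58.6% of the 5238 windows found for 4006 of the genes past the filter and 32.7% of the 32851 windows in the table. A gene with several windows counts more than once, and no share per gene was computed. The E-box CACGTG, the letters that clock activators bind, was in none of the 4 windows shown. It was in 8.33% of the guidance windows and in 9.37% of those of genes past the filter. These matches describe letters only, and no binding was measured.

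**Figure D2:**
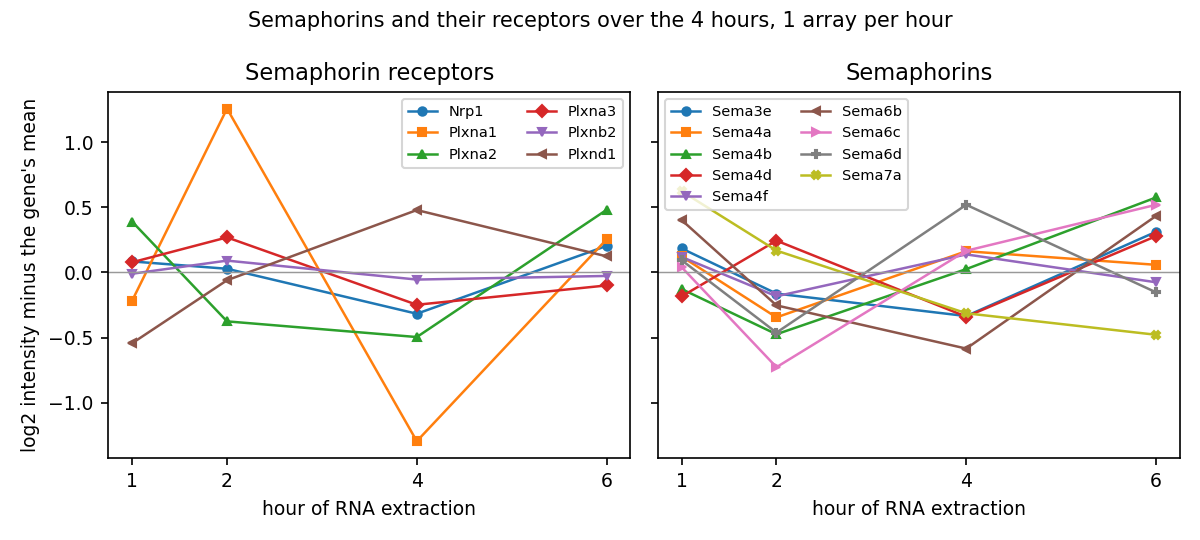
Log2 intensity minus the mean of the same gene (vertical axis) against the hour of RNA extraction (horizontal axis), for 6 semaphorin receptors on the left and 9 semaphorins on the right, with 1 array at each hour. Nrp1, Plxna1, Plxna2 and Plxna3 reach their lowest point at 4 h, as does Plxnb2 by a small margin, while Plxnd1 peaks there. On the right Sema7a alone runs down at every step, an order lost once each array is scaled to its median.

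Of the secreted semaphorins, 1 of 5 genes was past the filter. Sema3e, whose receptor is Plxnd1, read 405, 319, 283 and 443, highest at 6 h and lowest at 4 h, where Plxnd1 was highest. Sema3a, the classical ligand of Nrp1, lay under the floor at 2 and 6 h and read 81.9 at 1 h and 91.1 at 4 h. Sema3b was under the floor in every sample on both of its probe sets. Sema3c reached 40.9 at 4 h and Sema3f, a ligand of neuropilin 2, reached 39.4 at 6 h, with the other samples under the floor.

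Membrane semaphorins had the most genes past the filter, 8 of 10, and 4 of the 7 guidance genes with a span over 2-fold. Sema7a, anchored by a lipid and known to bind integrins and plexin C1, read 1130.2, 824.5, 591 and 527. It was the 1 guidance gene with lower values at every step, an order found in 2.4% of all genes. With each array scaled to its median, or with the mean of its probe sets, Sema7a was lowest at 4 h and the order was lost. Its slope was −0.21 ± 0.07 log2 per h (SE, n = 4; limma unadjusted p = 0.00775, adjusted p = 0.99993), and −0.05 with the mean of its probe sets. The other Sema7a probe set, dimmer than the filter allows, read 118.5, 170.3, 92 and 231 and was highest at 6 h, where the brighter one was lowest.

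Class 6 semaphorins, transmembrane ligands of A-type plexins, varied between hours without a common order. Sema6b read 298.5, 189.6, 150.7 and 305, so 1 and 6 h were alike and 4 h was lowest. Sema6c was lowest at 2 h, with 215, 126, 234 and 299 (2.37-fold), on a probe set marked as holding fewer probes than usual. Sema6d read 299, 204, 402 and 252 and was highest at 4 h. Sema6a, the ligand of Plxna2 in mossy fibre layering, was under the filter at 41.4 to 55.6 in the 4 samples.

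In class 4, Sema4f, known to bind the postsynaptic scaffold PSD-95, was bright and even, at 1816, 1473, 1840.4 and 1587 (mean 1679 ± 178, SD, n = 4). Sema4a read 637, 461, 655 and 609, with 2 h alone below the others. Sema4d, a ligand of B-type plexins that promotes inhibitory synapses, read 384, 516, 345 and 529. Sema4b read 413, 325, 459 and 672, a 2.07-fold span with 6 h highest, on a probe set marked as shared by similar sequences. Its other probe sets read 285.5, 410, 351 and 310.4, and 119, 156, 217 and 146. The peak at 6 h was therefore not seen on either of them. Sema5b, under the filter on its mean, read 89.3, 255, 412 and 61.6 and was highest at 4 h.

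Of netrin signalling, netrin 1 (Ntn1) and the repulsive receptor Unc5c were measured past the filter. Ntn1 read 268, 373, 417 and 432, the 1 guidance gene with higher values at every step, an order found in 2.65% of all genes. With each array scaled to its median no guidance gene kept that order, and with quantile normalisation 2 had it. Its slope was 0.12 ± 0.08 log2 per h (SE, n = 4; limma adjusted p = 0.99993), or 0.05 without the 1 h sample. The other Ntn1 probe set exceeded the floor only in the 1 h sample (76.8, 20.2, 19.3 and 14.5). Unc5c read 1424, 1298, 1170.5 and 1352, a mean of 1311 ± 107 (SD, n = 4). Neither Robo gene reached the filter. Robo1 read 153.5, 175, 163 and 119.8 and Robo3 read 109, 164, 90.8 and 92.8, both highest at 2 h. For comparison of spread, Unc50, the gene matched by letters alone, read 1728, 2149, 2815 and 2477.

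Between the highest and the lowest hour, 7 of 27 guidance genes (25.9%) differed by over 2-fold, against 15% of all genes past the filter. They were Plxna1 at 5.86-fold, Sema6c, Epha8, Sema7a, Sema4b, Plxnd1 at 2.03-fold and Sema6b at 2.02-fold. Sema6d and Plxna2, both at 1.97-fold, fell just short. The median span was 1.53-fold in the guidance genes and 1.47-fold over all genes. The count changed with the rules for dim genes. With a constant of 50 added in place of the floor it was 2 of 27 (7.41%, Plxna1 and Sema7a) against 10% of all genes. Such a constant narrows the span of dim genes by construction. With the filter at the 50th percentile it was 3 of 22 (13.6%) against 9.69%. Without a filter it was 13 of 42 (31%) against 32.1%. It was 6 of 26 (23.1%) against 14.6% with quantile normalisation and 6 of 27 (22.2%) against 15.9% with each array scaled to its median. With the mean of all probe sets it was 9 of 29 (31%) against 17.7%. Without the 1 h sample it was 5 (18.5%) against 10.4%, and without the 2 h sample 4 (14.8%) against 10.5%. It was 4 (14.8%) against 7.61% without the 4 h sample and 3 (11.1%) against 10.7% without the 6 h sample.

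**Figure D3:**
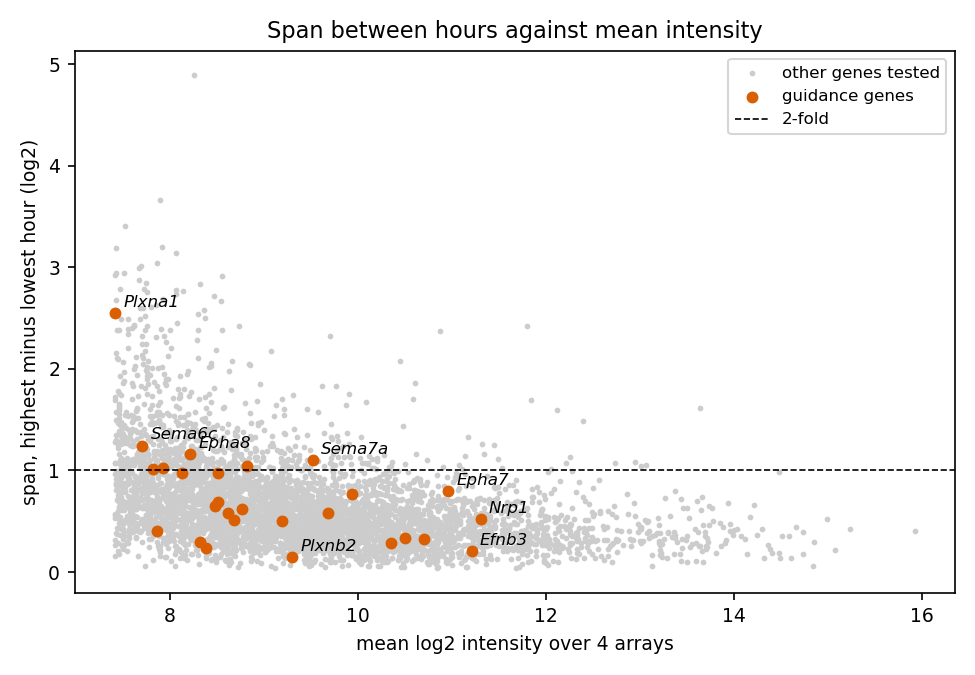
Difference between the highest and the lowest hour (log2, vertical axis) against the mean log2 intensity over the 4 arrays (horizontal axis), with 1 point per gene past the filter and guidance genes in orange. The dashed line marks 2-fold. Spans widen towards dim genes in grey and orange alike, and Plxna1, at 5.86-fold, sits at the left edge next to the filter.

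The hours were not evenly used by the guidance genes, nor by all genes past the filter. Of 27, 13 (48.1%) had their lowest value at 4 h, against 29.2% of all genes past the filter, and 9 (33.3%) at 2 h, against 23.2%. Of the 13, Efnb3 and Plxnb2 were lowest there by factors of only 1.002 and 1.02. The lowest value was at 1 h in 3 (11.1%), against 24.5%. The highest value fell at 6 h in 11 (40.7%), against 22.3%. It fell at 1 h in 6 (22.2%), against 23.1%, at 2 h in 4 (14.8%), against 23.2%, and at 4 h in 6 (22.2%), against 31.4%. Lowest values at 6 h were few, 2 of 27 against 23.1%, and belonged to Epha4 and Sema7a. Relative to the other 3 hours, the median guidance gene stood at 0.11 log2 at 1 h, −0.08 at 2 h, −0.09 at 4 h and 0.16 at 6 h, where the median of all genes was between 0.00 and 0.02 at each hour.

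The excess at 4 h depends on how the arrays are scaled. With each array scaled to its median, 14 of 27 (51.9%) were lowest at 4 h, but so were 46.9% of all genes, since under that scaling the typical gene reads lower on the 4 h array (median difference −0.17 log2). With quantile normalisation it was 11 of 26 (42.3%) against 30.7%. The share with a highest value at 6 h was 44.4% against 28.5% and 42.3% against 22.5% under these scalings. With the mean of all probe sets of a gene it was 8 of 29 (27.6%) against 21.5%, and the share lowest at 4 h was 11 of 29 (37.9%) against 28%. Each of these counts rests on 1 array per hour and on genes that share it, so they describe these arrays and carry no test.

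**Figure D4:**
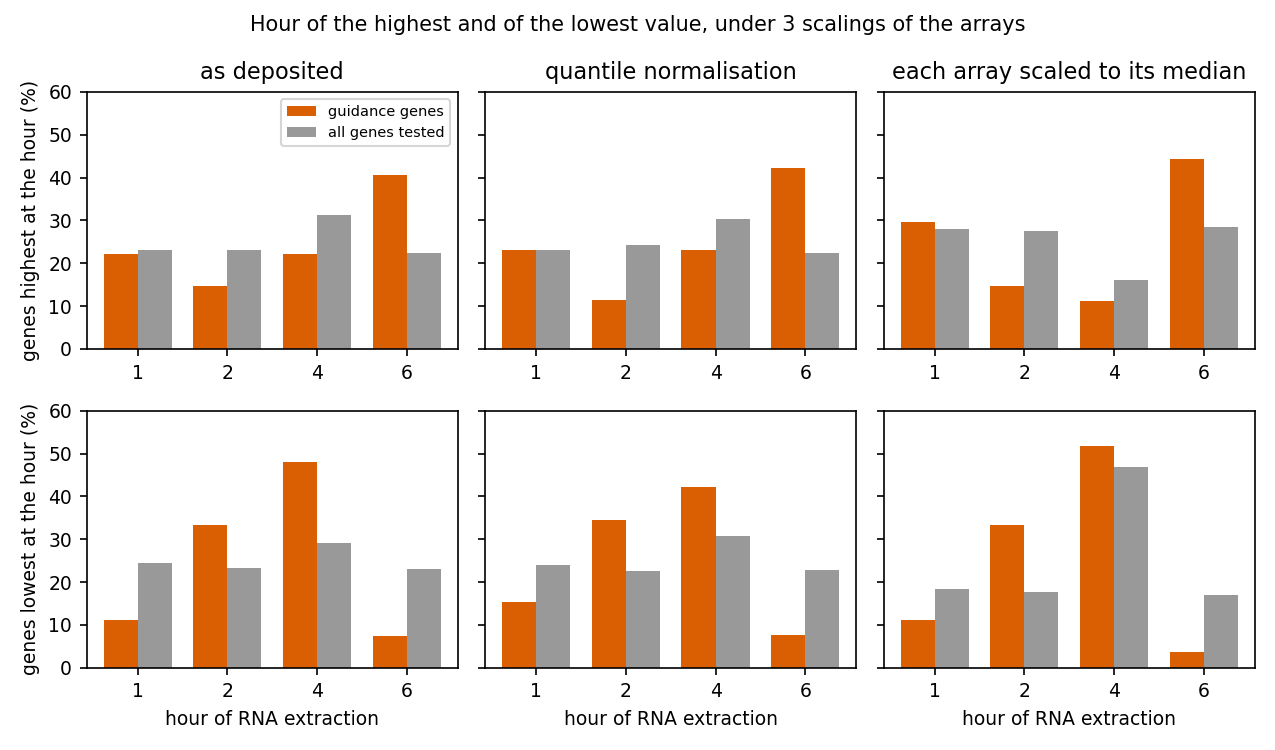
Percent of genes with their highest value (top row) and their lowest value (bottom row) at each hour of RNA extraction, for guidance genes (orange) and all genes past the filter (grey), under 3 scalings of the arrays in the columns. The orange bar for lowest at 4 h is 48.1% against 29.2% as deposited, and 51.9% against 46.9% once each array is scaled to its median.

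All 6 granule cell markers with a probe set were past the filter, and their summed intensity ran from 5829 at 1 h to 7389 at 2 h. All 6 microglia markers, all 5 astrocyte markers and 5 of 6 CA field and mossy cell markers were past it too. Passing the filter therefore does not single out granule cells. Of 5 choroid plexus markers with a probe set, 2 were past the filter, and the sum of the 5 was 2159, 4961, 5805 and 3087. Its parts differed. Ttr was highest at 4 h, the hour at which 13 guidance genes were lowest (81.3, 234, 2408 and 191). Igf2 was highest at 2 h (1849, 4402, 2955 and 2521). Under the filter, Kl (134, 135, 204 and 167) and Folr1 (58.2, 51.2, 126 and 109) were highest at 4 h. Aqp1 was highest at 2 h and under the floor at 1 h (36.6, 139, 113 and 99.1). Endothelial and mural markers, from cells in which Nrp1 and Plxnd1 are also known, had 3 of 8 past the filter and sums of 2622, 2355, 2468 and 1832. The sums of oligodendrocyte, astrocyte and microglia markers differed by at most 1.13-fold between hours, those of interneuron markers by 1.25-fold and those of CA field and mossy cell markers by 1.34-fold. Even sums held members that ran apart. The astrocyte marker Aldoc was highest at 4 h (9752, 11094.5, 14130 and 12712) and Gja1 lowest there (6949, 6610, 4646 and 6577). Of the microglia markers, C1qc was highest at 4 h, C1qa, C1qb and Csf1r were lowest, and Ctss and Cx3cr1 were neither. The part of these cells in the guidance values was not tested.

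Few pairs of probe sets for the same guidance gene ordered the hours alike. The share over all genes was not computed, so no trait of guidance genes is read from this. For 5 genes the brightest probe set and another were both past the filter: Efnb3, Ephb6, Nrp1, Plxnb2 and Sema4b. Of these 5 pairs, 1 shared the hour of the lowest value and 1 the hour of the highest, and in both cases the gene was Nrp1. The slope had the same sign in 1 pair, that of Efnb3.

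Co-receptors and intracellular effectors that the names do not cover were taken from a list of 75 genes, of which 47 had a probe set and 33 were past the filter. None of the 33 had a called trend with limma, against 0% of all genes, and 2 had an unadjusted p under 0.05, against 2.02%. A span over 2-fold was found in 5 of 33 (15.2%), against 15%. The lowest value was at 4 h in 15 (45.5%), against 29.2%. With quantile normalisation this was 10 of 33 (30.3%) against 30.7%, and with each array scaled to its median 19 (57.6%) against 46.9%. The highest value was at 1 h in 13 (39.4%), against 23.1%, or in 39.4% against 23.1% and in 45.5% against 27.9% under these scalings.

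The members with the widest spans were the syndecan Sdc3 (228, 149, 247 and 101), the small GTPase Rhoa (515, 1036, 454 and 474), the kinase Pak2 (485, 769, 1036 and 882), the adaptor Gipc1, which binds the tail of Nrp1 (469, 227, 264 and 296), Evl, a regulator of actin filaments (545, 693, 451 and 339), and the Ras GTPase-activating protein Rasa1 (657, 537, 350 and 479). The peak of Rhoa at 2 h was not shared by its other probe sets, which read 231, 73.9, 367 and 231, and 446, 459, 397 and 480. The other Gipc1 probe sets, under the filter, were highest at 4 h and not at 1 h (79.5, 103.4, 118.6 and 57.1, and 23.7, 31.3, 38.4 and 24.9). Evl was highest at 2 h on its other probe set as well (307, 545, 345 and 374), and the other Pak2 probe sets read 507, 638, 607 and 429, and 535, 604, 629 and 559.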

How the data were processed

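Each of the 4 samples has 1 intensity value per probe set in the table as deposited, with no log taken. How the authors scanned and scaled the arrays is not stated in the labels. Trimmed means (2% off each end) were 499.7 to 499.9 on the 4 arrays, so values were used as deposited. Of 12488 probe sets, 10833 had 1 gene symbol in the platform annotation; controls (66), unnamed (1193) and several-symbol (396) probe sets were left out. All 56 members matched a RefSeq symbol by identifier. Intensities under 38.3 were set to it, log2 was taken, and genes under the 40th percentile were not tested. The slope on the hour came from limma 3.58.1, run in R 4.3.3 (lmFit and then eBayes with its intensity trend on, 2 residual degrees of freedom) and tested on simulated data. Adjusted p values are Benjamini-Hochberg over 4951 genes, two-sided, called at 0.05. The number of arrays limits the precision. The p values weigh the slope against the scatter of these samples around the line, and that scatter may be technical. With eBayes the variance of each gene is moderated over all genes, so its SE and p do not rest on its own 4 values alone.

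Guidance genes past the filter are named with their 4 values, those under it by value or range, and the 6 partner genes with the widest span are named. The members, lists and tests were chosen with earlier results of these data known. Alternatives changed the floor, the filter, the scaling, the probe set rule and the variance model, or left out each sample. Those for the hour of the lowest and highest value were added after seeing the data.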

Additional observations from a re-analysis of the deposited data

How the results depend on the processing

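Under the alternatives with all 4 samples, 0 guidance genes and 0 genes in all had a called trend with limma. In the main setting 100 genes had an unadjusted p under 0.05. Leaving out 1 sample gave 0 to 13 called genes in all, none of them a guidance gene, from lines through 3 arrays with 1 residual degree of freedom. The number of guidance genes with a span over 2-fold was 7. It was 2 with a constant of 50 added in place of the floor, 13 of 42 (31%, against 32.1% of all genes) without a filter and 3 of 22 with the filter at the 50th percentile; an added constant narrows the span of dim genes by construction, and the filters change how many genes enter. It was 3 to 5 when 1 sample was left out. With 3 samples in place of 4 a span can only stay or shrink. In alternatives added after seeing the data, the number with the lowest value at 4 h (13 of 27) ran from 10 of 22 to 14 of 27 or 14 of 42, and that with the highest value at 6 h (11 of 27) from 8 of 29 to 14 of 27. The shares of all genes moved too. Highest at 6 h was 27.6% against 21.5% with the mean of all probe sets, and 51.9% against 31.9% without the 4 h sample. Lowest at 4 h was 45.5% against 30.5% with the filter at the 50th percentile and 33.3% against 23.3% without a filter. It was 51.9% against 46.9% with each array scaled to its median. Without the 2 h sample it was 51.9% against 36.5%, and without the 6 h sample 51.9% against 34.5%. With 3 samples in place of 4, the count at an hour that is kept can only stay or grow.

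Slopes on the hour, on which no call rests, changed sign in 27 of 329 fits of single genes under an alternative, and the cause was not tested. Fits of Unc50 are counted here. A change of the filter or of the variance model leaves a slope as it is by construction, and the higher floor changed only that of Plxna1. Such fits are among the 329, so the share does not measure how steady the slopes are. Most changes of sign came from leaving out 1 sample. With the mean of all probe sets of a gene, the slope in log2 per h was 0.023 for Epha4, 9.4e-05 for Ephb6, −1.8e-05 for Nrp1 and 0.013 for Plxnb2. It was −0.0011 for Nrp1 with each array scaled to its median and −0.0062 for Sema6b with quantile normalisation. When 1 sample was left out, the slope ran from −0.12 to 0.044 for Efnb2, from −0.0052 to 0.039 for Efnb3, from −0.14 to 0.033 for Epha4, from −0.045 to 0.19 for Epha5, from −0.025 to 0.042 for Epha6 and from −0.15 to 0.10 for Epha7. It ran from −0.056 to 0.078 for Ephb6, from −0.14 to 0.044 for Nrp1, from −0.49 to 0.058 for Plxna1, from −0.26 to 0.21 for Plxna2 and from −0.16 to 0.12 for Sema3e. The range was −0.011 to 0.10 for Sema4a, −0.086 to 0.081 for Sema4d, −0.035 to 0.028 for Sema4f, −0.31 to 0.17 for Sema6b, −0.034 to 0.19 for Sema6d and −0.092 to 0.015 for Unc5c. The slope of Sema7a ran from −0.30 without the 6 h sample to −0.049 with the mean of all probe sets, and that of Ntn1 from 0.053 without the 1 h sample to 0.19 without the 6 h sample. Signal over background limits the dim genes, and 15 guidance genes were not tested for that reason. No paired analysis was possible because the samples form 1 group.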
